A study of Mus musculus with 11 samples.

Results

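The genes described here are 37 genes of the unfolded protein response and the integrated stress response, out of 55536 genes measured by bulk RNA-seq in mouse pancreatic islets. They were taken by symbol and divided by function into 5 roles. These are 17 chaperones and folding enzymes of the endoplasmic reticulum (ER) lumen, 4 genes of the stress sensors and XBP1, 9 genes of the ATF4 and CHOP branch, 4 genes of ER-associated degradation and 3 genes of protein translocation and the ER membrane. All 37 passed the filter on low counts in every comparison. *Ddit3* is the symbol of 1 further row, which held 0 counts in all 11 libraries and is not used.

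All mice were wild-type C57BL/6J females, 9 weeks old when the experiment began. They either stayed virgin or completed 3 pregnancies in a row (multipara), and 3 weeks had passed since the final delivery when islets were taken. Treated mice received the insulin receptor antagonist peptide S-961 for 3 days, in 2 daily doses of 100 nmol/kg. The libraries fall into 4 groups, namely virgin untreated (n = 2), multipara untreated (n = 2), virgin S-961 (n = 3) and multipara S-961 (n = 4). The untreated groups are labelled as having no treatment, so that the injections and the blockade of the receptor cannot be told apart. The labels do not say whether a library came from 1 mouse or a pool, and p-values therefore measure the spread between these libraries.

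Total counts per library ran from 22028507 to 32234146. The 37 stress genes held 0.912% to 1.05% of all counts in untreated and 1.22% to 2.0% in S-961 libraries, while insulin mRNA (*Ins1* with *Ins2*) held 35.3% to 41.4% and 13.2% to 20.7%. Of the counts without insulin mRNA they held 1.43% to 1.62% and 1.41% to 2.44%, so that the treatments overlapped, with multipara S-961 3 the lowest. The labels gave no batch, so that treatment and any difference in handling cannot be told apart. Some libraries stood apart from their groups. The library labelled multipara S-961 3 was the lowest of the 7 S-961 libraries for 28 of the 37 stress genes. The library labelled multipara S-961 4 had a summed level of 5 proliferation markers of 8.33 CPM (read counts divided by the library total times its TMM factor, which ran from 0.720 to 1.30, so that CPM do not sum to the same total in each library), against 110 to 241 in the other multipara S-961 libraries and 6.66 to 22.3 in the virgin S-961 libraries. The library labelled multipara untreated 1 held 1920 CPM of 6 macrophage and leukocyte markers, against 400 to 419 in the other untreated libraries.

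The ER folds secreted proteins, and a β cell that makes insulin places a heavy load on it. When unfolded protein accumulates, the sensors IRE1α, ATF6 and PERK leave the chaperone BiP and start the unfolded protein response, in which IRE1α splices the *Xbp1* mRNA and XBP1 and ATF6 induce chaperones and degradation factors. PERK instead phosphorylates the translation factor eIF2α, as other kinases do under amino acid shortage in the integrated stress response, and the resulting translation of ATF4 induces genes of amino acid supply and, with CHOP, genes tied to cell death.

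The promoter sequences of these genes were searched for the motifs by which the branches are usually told apart. RefSeq windows around the transcription start (GRCm38.p6) were found for 34 of the 37 genes and for 27025 genes in all, and 4 motifs were looked for on both strands. The ER stress element, which is bound by ATF6 with NF-Y, reads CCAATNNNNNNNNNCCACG. It stood in 7 of the 15 folding genes with a window, in 1 of 4 degradation genes and in 0 of 9 genes of the ATF4 and CHOP branch, so that 8 of the 34 genes (23.5%) held it, against 0.137% of all genes. The other form of that element, which is ATTGG, then 1 base of any kind, then CCACG, was in *Herpud1* and *Dnajb11* and in 0.0440% of all genes. The XBP1 core ACGTGG, which can overlap that form, was in 9 of the 34 genes (26.5%) and in 9.40% of all genes. The amino acid response element TGATGNAAT, which ATF4 binds, was in *Nupr1* only among the 34 (1.08% of all genes). Only exact letters within the windows were counted, so that variants and more distant sites were missed for all 4 motifs. The *Asns* window, for example, holds TGATGAAAC, which differs in its last letter. Since the genes were chosen as known members of these pathways, the shares describe the choice. The stretches below show the ER stress elements of a gene that is the standard reporter of the response (*Hspa5*), of both genes that hold the element and passed the test after S-961 (*Dnajc3* and *Syvn1*) and of a gene that holds the element and did not pass (*Canx*). The other form in *Herpud1*, the XBP1 core in *Dnajb9*, and the amino acid response element in *Nupr1* follow. Each is written in the direction of the gene, with the fixed letters of the motif in capitals (on the opposite strand for *Dnajb9* and *Nupr1*).
*Hspa5*, chr2:34772005-34772063, plus strand, 65 bases before the start: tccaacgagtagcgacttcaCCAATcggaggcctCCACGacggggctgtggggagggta
*Dnajc3*, chr14:118937807-118937865, plus strand, 105 bases before the start: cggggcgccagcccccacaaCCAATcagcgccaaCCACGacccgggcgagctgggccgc
*Syvn1*, chr19:6046512-6046570, plus strand, 44 bases before the start: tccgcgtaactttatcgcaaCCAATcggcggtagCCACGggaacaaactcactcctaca
*Canx*, chr11:50325780-50325838, minus strand, 145 bases before the start: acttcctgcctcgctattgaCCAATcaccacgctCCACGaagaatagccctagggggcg
*Herpud1*, chr8:94386357-94386407, plus strand, 52 bases before the start: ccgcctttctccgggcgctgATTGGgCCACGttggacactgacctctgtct
*Dnajb9*, chr12:44210151-44210196, minus strand, 108 bases before the start: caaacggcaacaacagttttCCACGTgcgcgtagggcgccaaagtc
*Nupr1*, chr7:126625553-126625601, minus strand, 111 bases before the start: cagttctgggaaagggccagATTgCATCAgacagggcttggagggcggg

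With S-961, a set of ER chaperones, sensors and degradation genes was higher and targets of ATF4 and CHOP were lower than without treatment, in virgin and in multipara islets. In virgin islets 13 of the 37 genes were higher (35.1%, against 18.8% of the 17996 genes tested) and 5 were lower (13.5%, against 17.6%) at an adjusted p-value under 0.05. In multipara islets 13 were higher (35.1%, against 18.2%) and 6 were lower (16.2%, against 19.4%). Of these calls, 11 higher and 5 lower genes were shared by both parity groups. The median log2 fold change of the 37 genes was 0.59 in virgin and 0.58 in multipara islets, beside −0.04 and 0.03 over all genes tested. The share of lower genes did not exceed that among all genes, and all of the lower genes belonged to the ATF4 and CHOP branch. The 2 comparisons used separate libraries and shared 1 estimate of the spread. The counts moved with single untreated libraries. Without virgin untreated 2, 9 genes passed in virgin islets, with 5 higher (beside 8.12% of all genes) and 4 lower (beside 7.9%). Without virgin untreated 1, 13 passed, beside 9.39% of all genes higher and 8.98% lower. Without multipara untreated 1, the library rich in leukocyte markers, 12 passed in multipara islets, with 6 higher (beside 8.39%) and 6 lower (beside 10.8%).

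**Figure D1:**
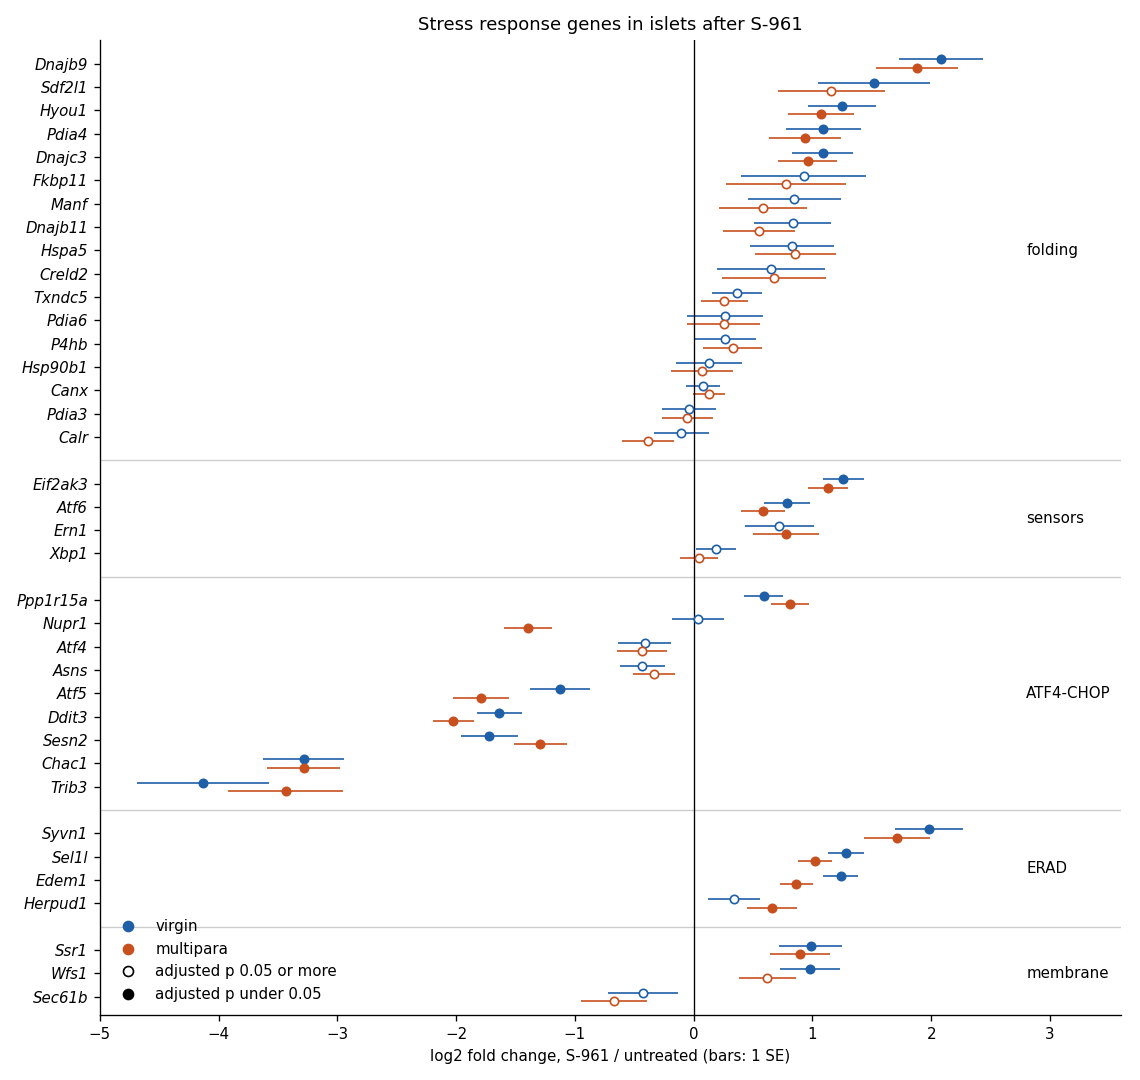
Log2 fold change of S-961 over untreated islets (x axis) for each of the 37 genes (y axis, by role), in virgin (blue) and multipara (orange) islets, with bars of 1 SE and filled points for an adjusted p-value under 0.05. Folding, sensor and degradation genes lie mostly right of 0, while *Trib3* and *Chac1* lie between −4.13 and −3.28.

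Among the folding genes, 5 of 17 rose in virgin (29.4%, beside 18.8% of all genes) and 4 of 17 in multipara islets (23.5%, beside 18.2%, a share near the background), and none fell. The largest change was in *Dnajb9* (chr12:44205559-44210326), which encodes ERdj4, a J-domain partner of BiP. Its level was 186 and 123 CPM in the virgin untreated libraries and 96.1 and 150.0 CPM in the multipara untreated libraries. With S-961 it was 641, 609 and 712 CPM in virgin libraries and 473, 520.0, 244 and 573 CPM in multipara libraries, so that no S-961 library overlapped the untreated ones. The change was 4.22-fold in virgin islets (log2 2.08 ± 0.36 SE, adjusted p = 0.00148) and 3.68-fold in multipara islets (1.88 ± 0.34, adjusted p = 0.00204).

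*Hyou1* (chr9:44379490-44392369), a nucleotide exchange factor for BiP, was at 491 and 415 CPM in virgin untreated and 392 and 474 CPM in multipara untreated libraries. It was at 1102, 987 and 1141 CPM in virgin S-961 and 1137, 989.8, 510.1 and 998 CPM in multipara S-961 libraries, and rose 2.38-fold and 2.10-fold (adjusted p = 0.00697 and 0.0119). *Dnajc3* (chr14:118937976-118981697), a BiP partner that also restrains PERK, rose 2.12-fold and 1.95-fold (adjusted p = 0.00807 and 0.0119). Its untreated levels of 278, 239.8, 238 and 284 CPM lay below all S-961 levels, which were 579, 503 and 568 CPM in virgin and 592, 629, 314 and 498 CPM in multipara libraries. *Pdia4* (chr6:47796141-47813430), a disulfide isomerase, went from 153 and 124 CPM to 288, 258 and 339.9 CPM in virgin libraries (2.13-fold, adjusted p = 0.0207). In multipara libraries it went from 132 and 135 CPM to 298, 334, 133 and 258 CPM (1.92-fold, adjusted p = 0.0325), where the third S-961 library sat at the untreated level.

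*Sdf2l1* (chr16:17130138-17132383), which works with BiP and ERdj3, passed in virgin and not in multipara islets. Its levels were 66.7 and 51.5 CPM in virgin untreated and 156, 138 and 214 CPM in virgin S-961 libraries (2.86-fold, adjusted p = 0.0279). In multipara islets it was 68.8 and 63.2 CPM without treatment and 180.3, 222, 51.7 and 135 CPM with S-961 (2.23-fold, adjusted p = 0.0637), with replicate 3 below both untreated libraries. The difference between these effects was −0.36 ± 0.62 on the log2 scale (edgeR, adjusted p = 0.951) and did not pass. *Fkbp11* (chr15:98724366-98728198), a prolyl isomerase, did not pass in either comparison, at 1.90-fold (adjusted p = 0.194) and 1.71-fold (adjusted p = 0.243). Its values spread widely among multipara S-961 libraries, at 79.0, 129.8, 23.6 and 49.8 CPM, beside 62.7, 46.8 and 71.1 CPM in virgin S-961, 35.1 and 28.2 CPM in virgin untreated and 38.6 and 43.8 CPM in multipara untreated libraries.

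Several abundant chaperones did not pass the test. *Hspa5* (chr2:34771970-34777547) encodes BiP, the Hsp70 of the ER lumen. It was at 1680 and 1333 CPM in virgin untreated and 1226 and 1495 CPM in multipara untreated libraries, and at 2534, 2254 and 3247 CPM in virgin S-961 and 2818, 3526, 1273 and 2216 CPM in multipara S-961 libraries. The fold changes of 1.78 (adjusted p = 0.0889) and 1.81 (adjusted p = 0.0696) came with SEs of 0.35 and 0.34 on the log2 scale. *Hsp90b1* (chr10:86690209-86705509), which encodes GRP94, stood at 1663 and 1484 CPM in virgin untreated, 1314 and 1551 CPM in multipara untreated, 1648, 1482 and 2028 CPM in virgin S-961, and 1646, 1914, 892 and 1567 CPM in multipara S-961 libraries. The groups overlapped, with log2 changes of 0.13 ± 0.28 and 0.07 ± 0.26 (adjusted p = 0.749 and 0.848). The other 9 folding genes (*Calr*, *Canx*, *Pdia3*, *Pdia6*, *P4hb*, *Dnajb11*, *Creld2*, *Manf* and *Txndc5*) had log2 changes between −0.11 (*Calr*) and 0.85 (*Manf*) in virgin islets and between −0.39 (*Calr*) and 0.68 (*Creld2*) in multipara islets, and none passed. Per kilobase of exon, *Hsp90b1*, *P4hb*, *Pdia3* and *Calr* were the highest of the 37 genes in virgin untreated islets (390.3 to 368 CPM per kb), and *Hspa5* was the highest in both S-961 groups (633 and 581 CPM per kb). Of the 8 genes that hold the ER stress element, 2 were higher in each comparison, beside 9 of the 26 without it.

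Of the sensors, *Eif2ak3* (chr6:70844515-70905245), which encodes PERK, changed most. Its levels of 41.8 and 38.9 CPM in virgin untreated and 36.0 and 36.8 CPM in multipara untreated libraries lay below 98.8, 97.8 and 93.2 CPM in virgin S-961 and 85.9, 78.0, 59.9 and 95.7 CPM in multipara S-961 libraries. *Eif2ak3* rose 2.40-fold in virgin (log2 1.26 ± 0.18, adjusted p = 0.000552) and 2.19-fold in multipara islets (1.13 ± 0.17, adjusted p = 0.000704). *Atf6* (chr1:170704674-170867771), a membrane-bound transcription factor released by cleavage, rose 1.73-fold and 1.5-fold (adjusted p = 0.00919 and 0.0285), from 119 and 112 CPM to 210.3, 216 and 173 CPM in virgin and from 96.1 and 124 CPM to 181, 145, 137 and 198 CPM in multipara libraries. *Ern1* (chr11:106394650-106487852), which encodes IRE1α, was at 88.0 and 108 CPM in virgin untreated, 194, 164 and 126 CPM in virgin S-961, 72.4 and 93.5 CPM in multipara untreated and 138, 86.9, 179 and 165 CPM in multipara S-961 libraries. *Ern1* passed in multipara (1.72-fold, adjusted p = 0.0474) and not in virgin islets (1.65-fold, adjusted p = 0.0733), and it lost that call when any 1 of 9 of the 11 libraries was left out. *Xbp1* (chr11:5520659-5525893) was at 318 and 259 CPM in virgin untreated and 339, 323 and 324 CPM in virgin S-961 libraries. In multipara libraries it was at 256 and 323 CPM without and at 307, 337, 248 and 305 CPM with S-961, so that the groups overlapped. The log2 changes were 0.19 ± 0.17 and 0.05 ± 0.16. These counts are summed over transcripts, so that the spliced form of *Xbp1* was not measured.

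**Figure D2:**
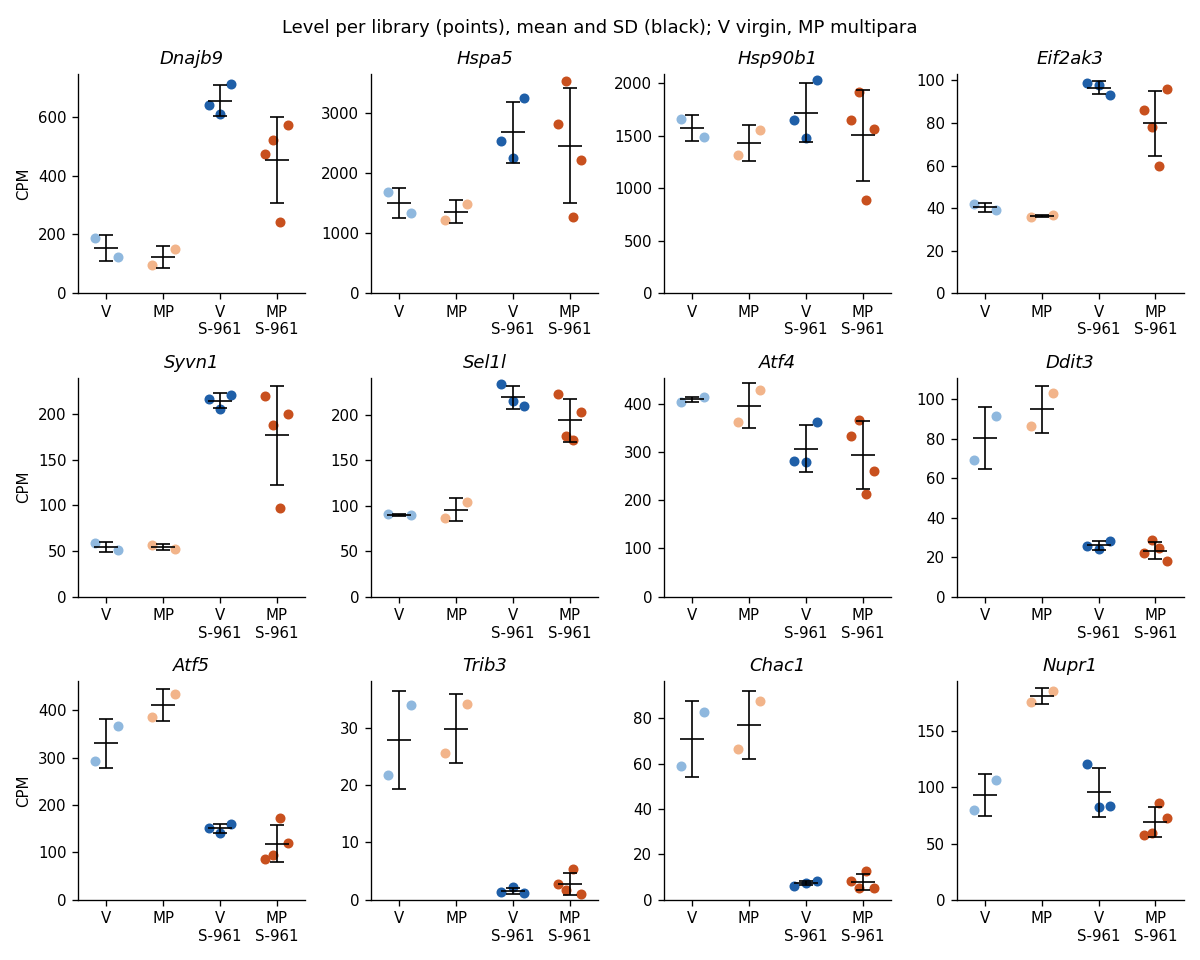
Level in CPM (y axis, from 0) of 12 genes in each library (points) of the 4 groups (x axis), with the mean and SD in black. *Trib3* is at 5.41 CPM or less and *Chac1* at 12.6 CPM or less in all 7 S-961 libraries, and the lowest multipara S-961 point of *Dnajb9*, *Hspa5*, *Hsp90b1*, *Eif2ak3* and *Syvn1* is replicate 3.

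Of the 4 genes of ER-associated degradation, 3 were higher in virgin (beside 18.8% of all genes) and 4 in multipara islets (beside 18.2%). All 4 had S-961 libraries above all untreated libraries of the same parity. This held for 23 of the 37 genes in virgin and 11 in multipara islets. The share over all genes was not counted, so that these counts describe the values and cannot be weighed against a background. *Syvn1* (chr19:6046576-6053712) encodes HRD1, the ubiquitin ligase that tags misfolded ER proteins. It was at 58.2 and 50.5 CPM in virgin untreated and 56.2 and 51.9 CPM in multipara untreated libraries, against 217, 206 and 221 CPM in virgin S-961 and 220.1, 188, 97.4 and 200.2 CPM in multipara S-961 libraries. *Syvn1* rose 3.95-fold (log2 1.98 ± 0.29, adjusted p = 0.000683) and 3.27-fold (1.71 ± 0.28, adjusted p = 0.00111). Its partner *Sel1l* (chr12:91806043-91849157) went from 91.1 and 89.4 CPM to 234, 215 and 209.7 CPM in virgin libraries (2.43-fold, adjusted p = 0.000278) and from 86.8 and 104 CPM to 223, 177, 173 and 203 CPM in multipara libraries (2.03-fold, adjusted p = 0.000556).

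*Edem1* (chr6:108828641-108859356), a lectin that selects misfolded glycoproteins, rose 2.36-fold (adjusted p = 0.000271) and 1.82-fold (adjusted p = 0.00103). Its levels were 83.4 and 69.1 CPM in virgin untreated, 181, 174 and 186 CPM in virgin S-961, 92.8 and 89.1 CPM in multipara untreated and 183, 177, 142 and 160.1 CPM in multipara S-961 libraries. *Herpud1* (chr8:94386438-94395377), a membrane component of the HRD1 complex, passed in multipara islets, from 199 and 239 CPM to 398, 429, 259 and 294 CPM (1.58-fold, adjusted p = 0.0317). In virgin islets it was at 254 and 284 CPM without and 325, 313 and 382 CPM with S-961 (1.26-fold, adjusted p = 0.253). Of the 3 genes of the translocation and ER membrane group, *Ssr1* (chr13:37966605-37994217), a subunit of the translocon-associated complex, rose 1.98-fold and 1.86-fold (adjusted p = 0.0139 and 0.0179). Its levels were 221 and 174 CPM and 394, 375 and 402 CPM in virgin, and 172 and 206 CPM and 398, 416, 209 and 378 CPM in multipara libraries. *Wfs1* (chr5:36966104-36989205), which encodes the ER membrane protein wolframin, rose in virgin islets from 142 and 131 CPM to 277, 275 and 254 CPM (1.97-fold, adjusted p = 0.0120). In multipara islets it was at 111 and 148 CPM without and 218, 191, 128 and 259 CPM with S-961 (1.54-fold, adjusted p = 0.0635). *Sec61b*, a subunit of the translocation channel, had log2 changes of −0.43 and −0.67 and did not pass (adjusted p = 0.284 and 0.0767).

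In the ATF4 and CHOP branch most calls were in the lower direction. In virgin islets 5 of 9 genes fell (55.6%, beside 17.6% of all genes) and 1 rose (11.1%, beside 18.8%). In multipara islets 6 fell (66.7%, beside 19.4%) and 1 rose (11.1%, beside 18.2%). The largest change of the 37 genes was in *Trib3* (chr2:152337422-152344032), a pseudokinase that binds Akt. It was at 21.8 and 33.9 CPM in virgin untreated and 25.6 and 34.1 CPM in multipara untreated libraries, and at 1.39, 2.20 and 1.17 CPM in virgin S-961 and 2.79, 1.72, 5.41 and 1.03 CPM in multipara S-961 libraries. This was 17.5-fold lower in virgin (log2 −4.13 ± 0.56, adjusted p = 0.000479) and 10.8-fold lower in multipara islets (−3.44 ± 0.49, adjusted p = 0.000541). *Chac1* (chr2:119351229-119354381), an enzyme that degrades glutathione, was 9.73-fold lower in both (adjusted p = 0.000161 and 9.6e-05). It went from 59.1 and 82.9 CPM to 6.24, 7.39 and 8.25 CPM in virgin and from 66.4 and 87.8 CPM to 8.40, 5.38, 12.6 and 5.20 CPM in multipara libraries.

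*Ddit3* (chr10:127290774-127296288), which encodes the transcription factor CHOP itself, was 3.11-fold lower in virgin (log2 −1.64 ± 0.19, adjusted p = 0.000241) and 4.06-fold lower in multipara islets (−2.02 ± 0.17, adjusted p = 7.9e-05). Its untreated levels were 69.3 and 91.6 CPM in virgin and 86.5 and 103 CPM in multipara libraries. With S-961 it was at 25.5, 23.8 and 28.3 CPM in virgin and 22.2, 28.6, 24.4 and 18.2 CPM in multipara libraries, a narrow band that did not approach the untreated values. *Sesn2* (chr4:132492032-132510501), a restraint on mTORC1 under amino acid shortage, fell 3.30-fold and 2.45-fold (adjusted p = 0.000583 and 0.00157). It went from 69.2 and 90.6 CPM to 23.9, 23.9 and 24.9 CPM in virgin and from 75.6 and 83.0 CPM to 30.3, 25.7, 47.8 and 25.7 CPM in multipara libraries. *Atf5* (chr7:44812256-44816658), a transcription factor translated by the same mechanism as ATF4, fell 2.18-fold and 3.47-fold (adjusted p = 0.00603 and 0.000373). Its levels were 294 and 367 CPM in virgin untreated, 153, 141 and 160.0 CPM in virgin S-961, 387 and 434 CPM in multipara untreated and 86.3, 94.0, 173 and 121 CPM in multipara S-961 libraries.

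The mRNA of *Atf4* itself (chr15:80255184-80257541) did not pass in either comparison. It was at 406 and 414 CPM in virgin untreated, 281, 279 and 364 CPM in virgin S-961, 364 and 430.0 CPM in multipara untreated and 334, 368, 212 and 261 CPM in multipara S-961 libraries, with log2 changes of −0.41 ± 0.22 and −0.43 ± 0.21 (adjusted p = 0.174 and 0.128). ATF4 protein is set largely by translation, which these data do not measure. *Asns*, which makes asparagine and is a classical target of ATF4, had log2 changes of −0.43 and −0.34 (adjusted p = 0.0951 and 0.157). *Ppp1r15a* (chr7:45522916-45526268) encodes GADD34, which directs the phosphatase that ends the eIF2α signal, and was the 1 gene of the branch that rose. Its levels were 94.2 and 87.1 CPM in virgin untreated, 143, 133 and 132 CPM in virgin S-961, 89.0 and 67.1 CPM in multipara untreated and 139, 154, 143 and 112 CPM in multipara S-961 libraries (1.5-fold, adjusted p = 0.0170, and 1.75-fold, adjusted p = 0.00304).

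*Nupr1* (chr7:126623249-126630861), a small stress-induced nuclear protein, was the gene with the largest difference between parity groups in the S-961 effect. It was at 80.2 and 106 CPM in virgin untreated and at 121, 82.9 and 83.1 CPM in virgin S-961 libraries (log2 0.04 ± 0.22, adjusted p = 0.915). In multipara libraries it was at 177 and 186 CPM without and at 57.8, 59.1, 86.3 and 72.6 CPM with S-961, and fell 2.63-fold (log2 −1.40 ± 0.20, adjusted p = 0.000618). The difference between the effects was −1.43 ± 0.31 (adjusted p = 0.409) by edgeR and did not pass. By DESeq2 the same difference was −1.46 ± 0.32 and passed (adjusted p = 0.00492). *Nupr1* is the gene of the branch whose window held the amino acid response element printed above.

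The ATF4 and CHOP branch and the degradation genes separated the treatments in all 11 libraries, and the folding genes did so except for multipara S-961 3, which lay below the untreated libraries. The mean log2 CPM of the 9 genes of the ATF4 and CHOP branch was 6.60 to 7.02 in the 4 untreated libraries and 5.11 to 5.79 in the 7 S-961 libraries. The mean of the 17 folding genes was 8.105 to 8.36 without treatment, and with S-961 8.75 to 9.20 in 6 libraries and 7.92 in multipara S-961 3. The mean of the 4 degradation genes was 6.60 to 6.70 without and 7.30 to 7.94 with S-961.

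**Figure D3:**
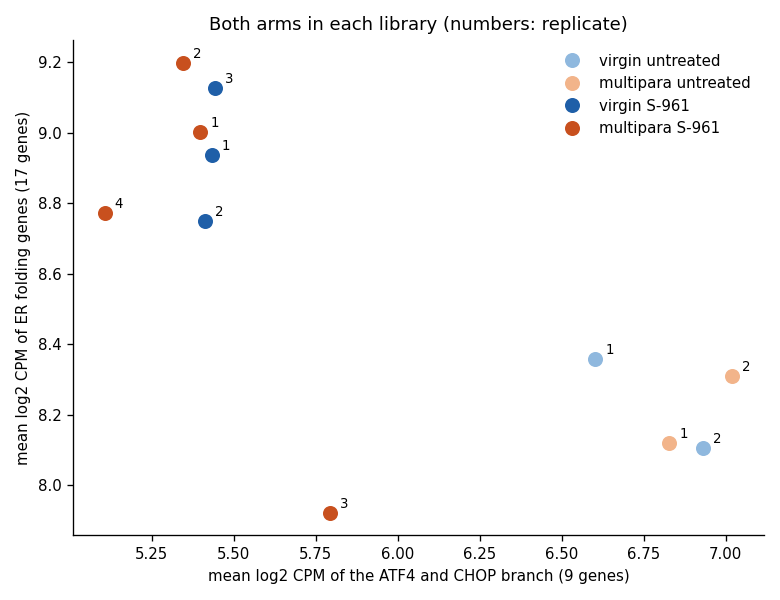
Mean log2 CPM of the 17 folding genes (y axis) against that of the 9 genes of the ATF4 and CHOP branch (x axis) in each of the 11 libraries, numbered by replicate. Untreated libraries lie at the right, between 6.60 and 7.02, and all S-961 libraries at the left, with multipara S-961 3 at 7.92 on the y axis below every other library.

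The library labelled multipara S-961 3 was the lowest of the 7 S-961 libraries for 17 of 17 folding genes, 4 of 4 degradation genes and 3 of 3 genes of the translocation and ER membrane group, whereas 28.1% of all 16784 genes tested were lowest there. Against the median of the other 6 S-961 libraries, its folding genes had a median log2 ratio of −1.04, from −0.21 (*Canx*) to −1.70 (*Sdf2l1*), beside −0.002 over all genes tested. Of the ATF4 and CHOP branch, 5 of 9 genes were highest in this library, beside 25.3% of all genes, with *Trib3* at a log2 ratio of 1.80, *Sesn2* at 0.92 and *Chac1* at 0.88, though each stayed below every untreated library. Without this library 27 genes passed in multipara islets, of which 21 were higher (20.7% of all genes tested) and 6 lower (21.4%), and 18 of the 19 earlier calls were among them. The 9 genes gained were *Hspa5* (2.10-fold, log2 1.07 ± 0.23, adjusted p = 0.00523), *Sdf2l1* (2.72-fold, adjusted p = 0.00143), *Wfs1* (1.72-fold, adjusted p = 0.00409), *Fkbp11*, *Dnajb11*, *Creld2*, *P4hb*, *Manf* and *Txndc5*, and *Ern1* was lost (adjusted p = 0.0782). These 9 were named after their values were seen.

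Among 82 other genes of the same pathways, listed by role, 81 passed the filter. In virgin islets 27 were higher (33.3%) and 13 lower (16.0%), and in multipara islets 18 were higher (22.2%) and 10 lower (12.3%). Over all genes tested the shares were 18.8% and 17.6% in virgin and 18.2% and 19.4% in multipara islets, so that only the virgin share of higher genes lay well above them. Degradation genes again moved 1 way, with 7 of 13 higher in virgin and 4 of 13 in multipara islets and none lower. *Edem3*, a partner of EDEM1 in mannose trimming, went from 34.4 and 28.2 CPM to 208, 195 and 153 CPM in virgin libraries (log2 2.57 ± 0.27) and from 27.1 and 34.5 CPM to 171, 146, 98.7 and 181 CPM in multipara libraries (2.28 ± 0.26). *Derl3*, a derlin of the degradation channel, changed by 2.29 ± 0.52 in virgin islets.

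The other 23 genes of the ATF4 and CHOP branch were split. In virgin islets 5 were higher (21.7%, beside 18.8% of all genes) and 8 lower (34.8%, beside 17.6%). In multipara islets 2 were higher (8.7%, beside 18.2%) and 7 lower (30.4%, beside 19.4%). *Mthfd2*, a mitochondrial enzyme of one-carbon metabolism, fell by 2.28 on the log2 scale in virgin islets (98.0 and 126 CPM to 22.4, 22.4 and 24.3 CPM). *Eif4ebp1*, which restrains cap-dependent translation, fell by 1.97 in virgin and by 1.74 in multipara islets, and *Slc7a11*, the cystine transporter, fell by 1.94 in multipara islets from low levels of 4.11 and 1.64 CPM. Of those that rose, *Cebpb* changed by 2.26 ± 0.27 and *Atf3* by 2.23 ± 0.39 in multipara islets, both of them transcription factors also induced by other signals. In virgin islets *Cebpb* also rose (1.83 ± 0.26), whereas *Atf3* was at 32.1 and 19.99 CPM without and 25.4, 27.6 and 28.0 CPM with S-961 (0.05 ± 0.36, edgeR, adjusted p = 0.929). The difference between these effects of *Atf3* was 2.18 ± 0.51 and did not pass (edgeR, adjusted p = 0.409). *Fgf21*, a secreted stress hormone, changed by 2.75 ± 0.80 in virgin islets but reached no more than 1.27 CPM in any library. *Sec61g*, the smallest channel subunit, fell by 1.73 in virgin and by 2.03 in multipara islets (adjusted p = 0.00183 and 0.000520), in the same direction as the values of *Sec61b*.

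Insulin mRNA, the main load of the β cell ER, was lower with S-961 in every library. The 17 folding genes summed to 8145 to 9997 CPM in untreated libraries and to 11357 to 15183 CPM with S-961, except for 6859 CPM in multipara S-961 3. Per 1000 CPM of *Ins1* and *Ins2* they came to 20.8 ± 3.03 CPM in virgin untreated (SD, n = 2), 17.9 ± 1.73 in multipara untreated (n = 2), 84.0 ± 9.74 in virgin S-961 (n = 3) and 89.4 ± 20.8 in multipara S-961 islets (n = 4). The lowest S-961 library, multipara S-961 3 at 67.2, was above the highest untreated library at 23.0. Removing *Ins1* and *Ins2* before normalization left 18 and 19 genes called.

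Acinar markers rose with S-961, and exocrine cells carry large amounts of ER chaperones. Of 18 acinar markers 17 were tested, and all 17 were higher in both parity groups. *Prss1* was at 0.121 CPM or less in every library. Their summed level was 127 to 251 CPM in untreated and 2527 to 17393 CPM in S-961 libraries. The lowest S-961 value belonged to virgin S-961 3, whose folding genes summed to 14568 CPM, the second highest, and multipara S-961 3 had 12095 CPM of acinar markers with the lowest folding genes. The highest folding sum, 15183 CPM, was in multipara S-961 2, which had 15426 CPM of acinar markers. With the acinar score as a covariate no gene passed among the 37, nor among all 17996 genes, and the score did not overlap between the treatments (6.06 to 8.72 mean log2 CPM with S-961, 2.13 to 3.12 without). Log2 changes of the called genes kept their direction in that fit (18 of 18 and 19 of 19), which cannot tell the treatment from acinar RNA with such a score. Other cell type markers moved with S-961 too. In virgin islets 3 of 3 delta and PP and 3 of 4 alpha cell markers were lower. In multipara islets 1 of 3 delta and PP markers was lower, while 2 of 4 alpha cell markers were higher and 1 was lower. Of 6 beta cell markers, 2 were higher and 2 lower in each parity group. Of 5 stromal markers, 2 were higher in multipara and 0 passed in virgin islets. In multipara islets 4 of 4 red cell, 4 of 6 macrophage and leukocyte and 3 of 5 lymphocyte markers were lower, where multipara untreated 1 was the library rich in them. In virgin islets 1 of 4 red cell markers was higher, and 1 of 6 macrophage and leukocyte and 1 of 5 lymphocyte markers were lower. In whole islets, fewer cells of a type and less RNA per cell cannot be told apart, and the part of these cell types in the changes was not tested.

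**Figure D4:**
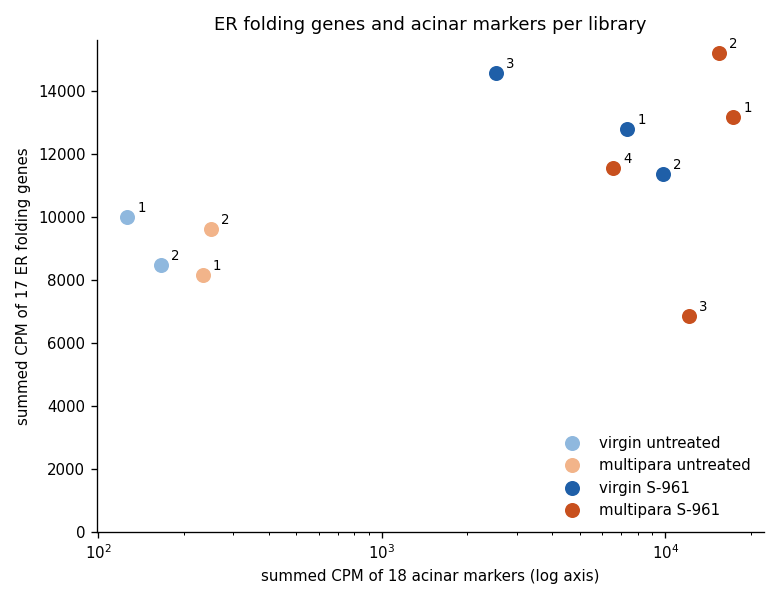
Summed CPM of the 17 folding genes (y axis, from 0) against the summed CPM of 18 acinar markers (x axis, log scale) in each of the 11 libraries, numbered by replicate. The S-961 libraries lie at 2527 CPM of acinar markers or more, and virgin S-961 3, with the fewest, has 14568 CPM of folding genes. The most folding genes, 15183 CPM, are in multipara S-961 2, at 15426 CPM of acinar markers.

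With parity, the study asked whether islets of multiparous mice respond differently when insulin demand increases. With S-961, none of the 37 genes passed between libraries labelled multipara and virgin, and neither did any of the 16784 genes tested (0.0%). The signs of this comparison and of the interaction rest on the parity labels of the S-961 libraries as deposited. The paper reports lower *Cdk1* in multipara than in virgin islets after S-961. By the labels, *Cdk1* was at 26.03, 33.7, 11.02 and 0.7685 CPM in multipara S-961 libraries. In virgin S-961 libraries it was at 1.298, 1.388 and 0.7117 CPM. Except in multipara replicate 4, this direction was opposite to the reported one, and whether the labels are correct was not tested. The 5 proliferation markers had a median log2 difference of 3.99 towards multipara, none of them passed, and replicate 4 was at the virgin level. By an unadjusted p-value under 0.05 there was 1 of the 37 genes, *Nupr1*, beside 9.71% of all genes, and DESeq2 called 0 of the 37 and 369 of all genes. Of the 37 log2 fold changes 28 were negative, with a median of −0.135 beside 0.004 over all genes, and the median moved to −0.002 without multipara S-961 3. Groups did not overlap for 2 of the 37 genes (5.41%, against 8.87% of all genes). These were *Dnajb9*, which was lower in all multipara libraries (log2 −0.52 ± 0.26, adjusted p = 0.556), and *Sesn2*, which was higher (0.44 ± 0.23, adjusted p = 0.574). *Trib3* had the highest change of the 37, at 0.815.

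Without the library labelled multipara S-961 4, 3.16% of all genes passed and still 0 of the 37 did. The study names its stress genes from single-cell RNA-seq of β cells and states no S-961 for it. The whole islets here differ from that in assay and cells, and in treatment where S-961 was given. None of the 5 genes among the 37 that the study names for stress passed between parity groups under S-961, with *Ddit3* at −0.14 ± 0.17, *Atf5* at −0.34 ± 0.23, *Nupr1* at −0.45 ± 0.19, *Sdf2l1* at −0.19 ± 0.40 and *Fkbp11* at 0.24 ± 0.46 on the log2 scale (adjusted p from 0.495 to 0.906). *Atf3*, which the study also names and which is not among the 37, was at 1.19 ± 0.32 (edgeR, adjusted p = 0.315), where multipara libraries held 64.0, 78.2, 73.0 and 27.1 CPM, the last of them within the virgin range of 25.4 to 28.0 CPM. The sign of *Sdf2l1* and of *Fkbp11* turned when 1 library was left out.

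Without treatment, none of the 37 genes and none of the 15812 genes tested passed (0.0%) between multipara and virgin islets, with 2 libraries in each group. Unadjusted, 2 of the 37 were under 0.05, beside 5.62% of all genes. Groups did not overlap for 6 of the 37 genes (16.2%, against 36.0% of all genes). *Nupr1* was 1.95-fold higher in multipara islets (log2 0.97 ± 0.16, adjusted p = 0.719), at 177 and 186 CPM against 80.2 and 106 CPM, and it was the 1 gene of the 37 that DESeq2 called (adjusted p = 7.1e-06). Of all genes, DESeq2 called 56. The edgeR log2 difference of *Nupr1* was 0.976 ± 0.15 without multipara untreated 1 and 0.935 ± 0.16 without multipara untreated 2. In such a fit the lone library of that group is assumed to vary like the others. The other gene under 0.05 unadjusted was *Fkbp11*, at 38.6 and 43.8 CPM against 35.1 and 28.2 CPM (log2 0.38 ± 0.13, adjusted p = 0.719). *Atf5* (0.32 ± 0.14), *Ddit3* (0.24 ± 0.16) and *Sdf2l1* (0.17 ± 0.15) did not pass.

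The interaction, which compares the S-961 effect between parity groups, gave 0 of the 37 genes and 0 of 17996 genes by edgeR (0.0%). Unadjusted, *Nupr1* was the 1 gene of the 37 under 0.05, beside 6.55% of all genes, and DESeq2 called *Nupr1* and 81 genes in all. The 37 interaction terms ran from −1.43 (*Nupr1*) to 0.69 with a median of −0.13, beside −0.04 over all genes. The SEs of these terms, such as 0.31 for *Nupr1* and 0.62 for *Sdf2l1*, set the size of the difference in response that could be detected with 2 untreated libraries in each parity group.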

How the data were processed

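Islet mRNA was sequenced from stranded poly(A) libraries. The authors deposited 1 table per library of expected counts per gene, made with STAR and RSEM on GRCm38/mm10 per the labels, without normalization and without stated versions. The expected counts were rounded, since 4449 to 5162 genes per library had values that were not whole, and tested with edgeR 4.0.16 in R 4.3.3 (TMM, filterByExpr with a minimum count of 10 and total of 15, quasi-likelihood F-test, Benjamini-Hochberg adjustment over all genes tested, threshold 0.05). Parity comparisons used their own 7 or 4 libraries, and the others all 11. CPM came from a joint TMM normalization, and group scores are means of log2 CPM (prior count 2). Coordinates are from GENCODE M21. The fits were tested on simulated counts. The coefficient of biological variation was 0.266 to 0.293. No library repeated another. The 37 genes and all lists were chosen with earlier results of these data known. Values in every library are given for called genes (at most the 4 largest changes per role and direction), the stress genes the study names and 9 defining genes, and of other pathway genes those with the 3 largest changes in each direction. Alternatives were DESeq2 1.42.0, its size factors, no filter, *Ins1* and *Ins2* removed, an acinar covariate, a replicate block, other sets of libraries and each library left out.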

Additional observations from a re-analysis of the deposited data

Results flagged for a closer look

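Among the 37 genes, *Txndc5*, a thioredoxin-like protein of the ER lumen, had 1 library far from the rest of its group. In the multipara S-961 libraries it was at 208, 207 and 207 CPM in replicates 1, 2 and 4 and at 123 CPM in replicate 3, so that the gap took a share of 0.98 of the group's range. Chance alone flags about 1 in 20 groups of 4, and 37 genes were examined. The untreated multipara libraries were at 157 and 155 CPM.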

How the results depend on the processing

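Of the 18 genes called in virgin and 19 called in multipara islets after S-961, every alternative kept the direction. DESeq2 called 21 and 23, DESeq2's size factors in edgeR 18 and 19, no filter 20 and 21, and a fit on libraries of that parity only 26 and 12. Calls over all genes moved too. The virgin-only fit called 4466 higher and 4034 lower of 16586, beside 3390 and 3172 of 17996 in the main fit. The multipara-only fit called 2112 and 2316 of 17438, beside 3272 and 3496 of 17996. DESeq2 called 3826 and 3322 in virgin and 3646 and 3756 in multipara islets. Without the filter these were 3215 and 2745, and 3395 and 3076, of 28547. The acinar covariate called 0 and 0. Leaving out 1 library gave 9 to 22 calls in virgin islets and 12 to 27 in multipara islets. The lowest counts came without virgin untreated 2 (9) and without multipara untreated 1 (12), and the highest without multipara S-961 3. Without multipara S-961 4 there were 18 and 16. Between multipara and virgin, S-961 libraries gave 0 calls under every alternative. Among the fits that kept every untreated library, untreated libraries gave 1 call by DESeq2, which was *Nupr1*, and 0 otherwise. Leaving out an untreated library leaves 1 in its group, so that calls of those fits are not given here. The log2 difference of *Nupr1* then ran from 0.77 to 1.18. The interaction gave 1 call by DESeq2 (*Nupr1*) and 0 otherwise.

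Whether the replicate numbers pair the libraries was not settled. Correlations of deviations from the group means ran from −0.145 to 0.28 for the 13 same-number pairs (median 0.056). For the 31 other pairs they ran from −0.28 to 0.23 (median −0.028). In a group of 2 libraries the deviations mirror each other, so that these correlations cannot exclude a pairing. With a replicate block the calls were 18 and 17 after S-961 and 0 in the parity comparisons and the interaction, and *Nupr1* in virgin islets turned to −0.01.

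Signs turned for genes that had not passed. Under the acinar covariate, *Atf5* was −0.36 and *Ddit3* −0.64 between untreated groups, and *Xbp1* was −0.018 after S-961 in multipara islets. When 1 library was left out, the log2 change ranged as follows. *Sdf2l1* ran from −0.46 to 0.090 and *Fkbp11* from −0.23 to 0.53 between S-961 groups, and *Sdf2l1* from −0.012 to 0.36 between untreated groups. After S-961, *Hsp90b1* ran from −0.008 to 0.22 in virgin and from −0.042 to 0.26 in multipara islets, *Nupr1* from −0.17 to 0.25 in virgin and *Xbp1* from −0.11 to 0.23 in multipara islets. The interaction of *Fkbp11* ran from −0.61 to 0.14. The cause of these differences was not tested, except that the acinar score did not overlap between the treatments and that leaving out a library or fitting 1 parity leaves fewer libraries.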
